A study of Mus musculus with 16 samples.

Results

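Mural trophectoderm of mouse blastocysts was compared between embryos paused by an inhibitor of mTOR (mTORi, 3 libraries) and normal embryos (WT, 2 libraries). These 5 of the 16 small RNA libraries of the series were chosen by their tissue and treatment labels and by the headers of their count columns, and every miRNA row was used. Blastocysts were cut with a laser into a polar fragment, which carries the inner cell mass, and a mural fragment, the trophectoderm away from it. WT blastocysts were taken at E4.5, and the labels give no stage, inhibitor name, dose or duration for the mTORi blastocysts, so age and inhibitor cannot be told apart. The titles of the 3 mural mTORi libraries carry the word diapaused and name no fragment, while their tissue label, treatment label and column header all place them as mural and mTOR inhibited. The series also holds mural fragments of blastocysts diapaused in vivo, taken at EDG 7.5 (3 libraries). Polar fragments came from WT (2), mTORi (3) and diapaused (3) blastocysts. All 16 libraries set the filter, scaling and spread used in the tests. Differences from these other groups were tested where said, and their levels and shares are otherwise given as description. The sources used here do not give strain, sex or the number of embryos in a library, and nothing says that libraries of a group came from separate pools, so p-values measure the spread between these libraries.

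mTOR is a kinase that couples nutrients and growth factors to protein synthesis, and its inhibition holds mouse blastocysts in a reversible pause that resembles diapause. Mural trophectoderm is the part of the blastocyst wall that attaches to the uterus and forms the first trophoblast giant cells. A miRNA is cut from one arm of a hairpin transcript, and the bases of its seed, near the 5′ end, choose the messenger RNAs it represses, so miRNAs with the same seed can act on the same targets.

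The sequences that carry the comparison are the called miRNAs and their nearest relatives, taken from RefSeq (GRCm38.p6) and written 5′ to 3′ with the seed, bases 2 to 8, in capitals. The X-linked miR-322/miR-351/miR-503 cluster gave 2 of the 6 falls. miR-351-5p has the seed of miR-125a-5p, while miR-503-5p and miR-322-5p have seeds that resemble each other and are not the same.
miR-351-5p: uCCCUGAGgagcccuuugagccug
miR-125a-5p: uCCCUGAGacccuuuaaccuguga
miR-503-5p: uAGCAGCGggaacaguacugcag
miR-322-5p: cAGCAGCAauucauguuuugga
The other falls with a sequence in the table were those of miR-672-5p, miR-99b-5p and miR-290a-5p. miR-290a-5p is shown with a pair of miRNAs of its cluster that have its seed.
miR-672-5p: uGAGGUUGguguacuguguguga
miR-99b-5p: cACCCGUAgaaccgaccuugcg
miR-290a-5p: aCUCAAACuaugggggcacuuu
miR-292a-5p: aCUCAAACugggggcucuuuug
miR-293-5p: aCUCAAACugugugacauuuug
Among the rises, miR-10b-5p is shown with miR-10a-5p and miR-148a-3p with miR-148b-3p, each pair having one seed.
miR-10b-5p: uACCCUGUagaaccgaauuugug
miR-10a-5p: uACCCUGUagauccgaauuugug
miR-148a-3p: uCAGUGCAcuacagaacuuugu
miR-148b-3p: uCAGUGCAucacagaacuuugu
miR-26b-5p: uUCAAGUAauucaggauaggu
miR-29a-3p: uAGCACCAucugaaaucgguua
miR-23a-3p: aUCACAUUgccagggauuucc

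The 5 libraries were shallow, with 6435 and 8366 miRNA counts in WT and 4386, 3613 and 3490 in mTORi, 26290 in all. Of 1978 mature names, 1695 had no count in them, 102 passed the filter on low counts over all 16 libraries and were tested, and these held 95.8% to 97.6% of the counts of each mTORi library. Levels (CPM) are tested counts scaled by TMM to a library of 1000000, on which 1 count was worth 119.6 to 155.8 CPM in WT and 238.7 to 328.8 CPM in mTORi libraries. The 3 mTORi libraries listed 140, 143 and 153 names with a count against 174 and 206 in WT, and 134.7 to 153 against 154 and 166.1 at an equal depth of 3490 counts. Replicates differed by more than counting error in every pair, the chi-square divided by its degrees of freedom being 4.696 in WT and 1.995 to 2.424 in mTORi.

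The tissue label was set beside marker miRNAs. The miR-322/miR-351/miR-503 cluster, which marks mural fragments in this series, held 7.71% and 7.33% of counts in the WT libraries and 3.44%, 2.63% and 2.98% in the mTORi libraries, against at most 1.97% in any polar library. The cluster was called a mural marker from this same series and holds 2 of the falls, so it is no independent check. The level of miR-322-5p alone was 15920 to 24000 CPM in mural mTORi and at most 11840 CPM in polar mTORi libraries. The miR-302/miR-367 cluster of the epiblast had 0 counts, which allows up to 0.0203% of counts in WT and 0.0261% in mTORi, and the Dlk1-Dio3 cluster, known from embryonic cells, had 4 counts in WT and 3 in mTORi. Muscle and neural markers had 0 counts. Only 2 of the 53 names with 2 or more hairpins had any count in these libraries. A 0 for a marker of that kind is therefore not read as absence. Red blood cell markers had 15 counts in WT and 21 in mTORi, with miR-144-3p at 0, and liver markers had 2 and 3. Leukocyte markers had 2 and 15 counts (0% to 0.0239% and 0.0228% to 0.315% of a library), 11 of the 15 in replicate 3, with both arms of miR-142a at 0. Endothelial markers had 1 and 7 counts (0% to 0.0155% and 0.0228% to 0.0860%) and stromal markers 7 and 9 (0.0466% and 0.0478%, 0.0573% to 0.111%). Markers of stratified epithelium had 90 and 129 counts (0.575% and 0.634% in WT, 0.996% to 1.28% in mTORi). The shares of red blood cell (0.0956% and 0.109% in WT, 0.143% to 0.205% in mTORi), endothelial, stromal and stratified epithelial markers were higher in every mTORi library, and their part in the results below was not tested.

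Of the 102 tested miRNAs, 12 (11.8%) were called at an edgeR quasi-likelihood adjusted p under 0.05, 6 higher (5.88%) and 6 lower (5.88%) in mTORi. The rises were miR-10b-5p, miR-148a-3p, miR-30d-5p, miR-26b-5p, miR-29a-3p and miR-23a-3p, between 2.88-fold and 11.2-fold. The falls were miR-672-5p, miR-503-5p, miR-351-5p, miR-466f-3p, miR-99b-5p and miR-290a-5p, between 3.0-fold and 10.7-fold apart from miR-672-5p, of which 2 counts were left in mTORi. Without regard to the test, the mTORi libraries did not overlap the WT libraries for 46 miRNAs (45.1%), with 21 above (20.6%) and 25 below (24.5%), and all 12 called miRNAs were among these 46. The median log2 change of all tested miRNAs was -0.06.

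The number called depended on the libraries in the fit. A fit of only these 5 libraries tested 65 miRNAs and called 22 (11 higher, 11 lower), a fit of the 8 mural libraries tested 88 and called 19 (12 higher, 7 lower), and each held all 12. With DESeq2 size factors (RLE) in edgeR 11 were called, 4 higher and 7 lower, so that 36.4% of calls were higher in place of 50.0%. Leaving out 1 library gave 6 calls without mTORi replicate 3 or WT replicate 1, 7 without WT replicate 2 and 8 without mTORi replicate 1 or 2.

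**Figure D1:**
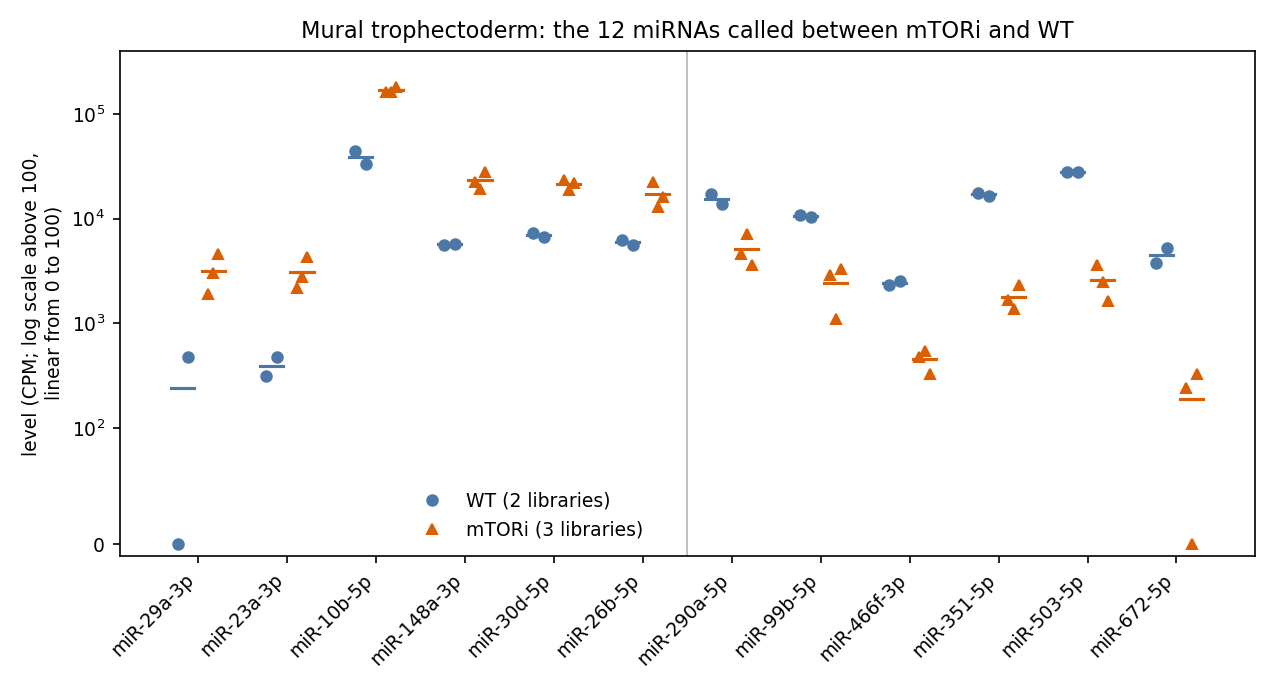
Level of the 12 called miRNAs in each mural library, in CPM (log scale above 100, linear from 0 to 100), with WT as circles, mTORi as triangles and horizontal bars at the group means. The groups do not overlap for any of the 12: the 6 at the left are higher in mTORi, and the 6 at the right are lower, with 1 library at 0 for miR-29a-3p (WT) and 1 for miR-672-5p (mTORi).

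Among the rises, miR-10b-5p moved the most counts. It lies in an intron of Hoxd3 and Hoxd4 (chr2:74726070-74726137, + strand) and belongs to a family embedded in the Hox clusters. Its counts were 286 and 280 in the WT libraries and 676, 584 and 554 in the mTORi libraries, or 44550 and 33490 CPM against 161300, 160300 and 182200 CPM. All mTORi libraries were far above both WT libraries although their totals were smaller. The rise was 4.31-fold (log2 2.11, SE 0.40, edgeR adjusted p = 0.00152), and miR-10b-5p was the second most abundant miRNA over the 5 libraries after miR-292a-5p.

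miR-10a-5p, which has the same seed and lies in the Hoxb cluster, had 15 and 13 counts in WT and 17, 38 and 17 in mTORi. The groups did not overlap after scaling, and it was not called (log2 1.78, SE 0.70, edgeR adjusted p = 0.0980). The fit of only the 5 libraries did call it (1.75, edgeR adjusted p = 0.0141). The family of miR-10a and miR-10b took 4.69% and 3.54% of the counts of the WT libraries and 15.9%, 17.2% and 16.5% of those of the mTORi libraries.

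miR-148a-3p (chr6:51269812-51269910, - strand, intergenic), known to repress the DNA methyltransferase Dnmt1, had the smallest p. Its counts were 36 and 48 in WT and 94, 70 and 84 in mTORi, or 5608 and 5740 CPM against 22440, 19220 and 27620 CPM. The lowest mTORi library stood above both WT libraries more than 3-fold, and the WT libraries were nearly equal. The rise was 4.05-fold (log2 2.02, SE 0.28, edgeR adjusted p = 0.000120). Its relatives with the same seed were not called: miR-148b-3p had 20 and 14 counts in WT against 7, 4 and 3 (log2 -0.89, SE 0.51, adjusted p = 0.273), and miR-152-3p had 2 counts in WT and 0 in mTORi, too few for a fold.

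miR-30d-5p, of a family known to restrain epithelial to mesenchymal transition, was at 7322 and 6697 CPM in WT and at 23150, 18670 and 21700 CPM in mTORi. It rose 3.02-fold (log2 1.59, SE 0.35, edgeR adjusted p = 0.00477), and the call was lost without WT replicate 1 (adjusted p = 0.0528) or WT replicate 2 (adjusted p = 0.105). All 5 tested names of the miR-30 family had a positive log2 change, with a median of 1.35 beside -0.06 over all tested miRNAs. Of the 5, 1 was called, beside 5.88% of all tested miRNAs called higher. The uncalled ones were miR-30e-5p (0.76, SE 0.45), miR-30e-3p (1.35, SE 0.72), miR-30b-5p (2.06, SE 0.97, on 4 counts in WT) and miR-30a-5p (0.27, SE 0.78). miR-30e-3p comes from the hairpin of miR-30e-5p and has another seed. miR-30c-5p, also of the family, had no count in the 5 libraries. The change of miR-30a-5p was -0.09 without mTORi replicate 2 and -0.19 without WT replicate 2.

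miR-26b-5p (chr1:74394310-74394394, + strand, in an intron of Ctdsp1), a repressor of the Polycomb methyltransferase Ezh2, had 40 and 47 counts in WT and 93, 47 and 49 in mTORi. In CPM these were 6231 and 5621 against 22200, 12900 and 16110, so that every mTORi library was above WT and replicate 1 was the highest. It rose 2.88-fold (log2 1.53, SE 0.40, edgeR adjusted p = 0.0173). The call was lost with RLE factors (adjusted p = 0.0505), with the trend of counts with GC content removed (log2 0.95, adjusted p = 0.133) and without mTORi replicate 1 (adjusted p = 0.0623), WT replicate 1 (0.0994) or WT replicate 2 (0.179).

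The remaining rises came from a few counts. miR-29a-3p (chr6:31062660-31062747, - strand, intergenic), a repressor of collagens and of de novo DNA methyltransferases, had 0 and 4 counts in WT and 8, 11 and 14 in mTORi. The fitted rise was 11.2-fold with a wide 95% interval on the log2 scale of 1.36 to 5.62 (log2 3.49, SE 1.01, edgeR adjusted p = 0.0282), and the call was lost without mTORi replicate 2 (adjusted p = 0.0594), mTORi replicate 3 (0.0829) or WT replicate 1 (0.195). The log2 change was 2.70 without WT replicate 1, and without WT replicate 2 it was 7.45, against a lone WT library at 0 counts.

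miR-23a-3p (chr8:84208518-84208592, + strand, intergenic), from the cluster of miR-23a, miR-27a and miR-24, had 2 and 4 counts in WT and 9, 10 and 13 in mTORi (log2 2.85, SE 0.85, adjusted p = 0.0329). It was not called with RLE factors (adjusted p = 0.0624), with limma voom (0.0516), or without mTORi replicate 2 (0.0643), mTORi replicate 3 (0.0891), WT replicate 1 (0.195) or WT replicate 2 (0.179). Its paralog miR-23b-3p had 15 and 9 counts in WT and 9, 9 and 2 in mTORi (log2 0.10, SE 0.89).

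The falls were led in counts by the miR-322/miR-351/miR-503 cluster, an X-linked group known to slow the cell cycle and to accompany differentiation. Bulk fragments cannot tell fewer cells of a type from less of a miRNA in each cell. miR-503-5p (hairpin chrX:53053984-53054054, - strand) had 178 and 235 counts in WT and 15, 9 and 5 in mTORi, or 27730 and 28100 CPM against 3580, 2471 and 1644 CPM. The highest mTORi library was more than 7-fold under either WT library. The fall was 10.7-fold (log2 -3.41, SE 0.75, edgeR adjusted p = 0.00477), and the call was lost without mTORi replicate 3, the library with the lowest level (log2 -2.98, adjusted p = 0.0603).

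miR-351-5p (mature chrX:53053315-53053338, - strand) had 113 and 137 counts in WT and 7, 5 and 7 in mTORi, or 17600 and 16380 CPM against 1671, 1373 and 2302 CPM. Its groups were as far apart as those of miR-503-5p, with WT libraries that nearly coincide. The fall was 9.55-fold (log2 -3.26, SE 0.55, edgeR adjusted p = 0.000755), and the log2 change was -2.54 with the GC trend removed (adjusted p = 0.00401).

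miR-322-5p (hairpin chrX:53054255-53054349, - strand), beside them on the chromosome, was not called. It had 136 and 154 counts in WT and 94, 58 and 73 in mTORi, or 21190 and 18420 CPM against 22440, 15920 and 24000 CPM. The groups overlapped, the log2 change was 0.07 (SE 0.45, 95% interval -0.89 to 1.02, edgeR adjusted p = 0.95), and its sign turned with RLE factors (-0.04), library size alone (-0.03) and other settings. miR-322-3p (log2 -0.08, SE 0.53) and miR-503-3p (-0.54, SE 0.73), on 71 and 48 WT counts, were not called either, so that 2 of the 5 tested names of the cluster fell, beside 5.88% of all tested miRNAs. The cluster was listed with earlier results known.

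Ratios within a library do not depend on scaling. Those given here were chosen after the values were seen and reuse the counts behind the calls, so they describe the same falls. miR-351-5p made up 45.4% and 47.1% of the counts of miR-351-5p and miR-322-5p together in the WT libraries and 6.93%, 7.94% and 8.75% in mTORi. The exact 95% intervals of the mTORi shares, which cover counting error only, reached at most 17.6%. miR-503-5p made up 56.7% and 60.4% of its sum with miR-322-5p in WT and 13.8%, 13.4% and 6.41% in mTORi.

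The 5p share of the miR-503 hairpin was lower in every mTORi library, as in 3 of 39 hairpins, with 3 above. The 5p arm held 89.9% and 89.4% of the counts of both arms in WT and 57.7%, 75% and 33.3% in mTORi, on 26, 12 and 15 counts. The exact 95% interval of mTORi replicate 2, 42.8% to 94.5%, covers the WT shares. Chosen after their values were seen, untested names of the same X-linked region were miR-542-3p, with 11 and 10 counts in WT and 1, 0 and 0 in mTORi, and miR-351-3p, with 4 and 12 against 1, 0 and 0.

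**Figure D2:**
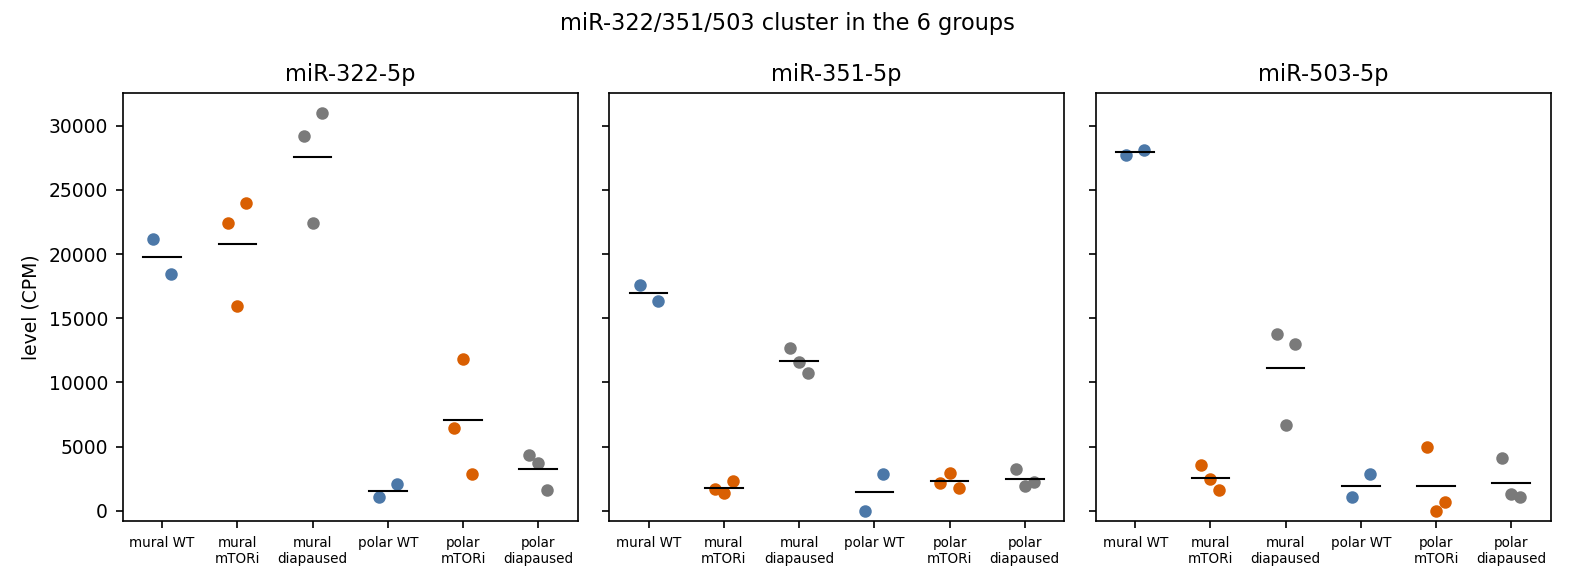
Level of miR-322-5p, miR-351-5p and miR-503-5p in all 16 libraries, in CPM, by fragment and treatment, with horizontal bars at the group means. In mural mTORi libraries miR-322-5p stays in the range of 15920 to 24000 CPM near that of mural WT, while miR-351-5p and miR-503-5p are near the levels of the polar libraries.

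miR-672-5p (chrX:104116175-104116274, - strand, in an intron of Nexmif) had 24 and 44 counts in WT and 1, 0 and 1 in mTORi. It was close to the detection limit in every mTORi library and well above it in both WT libraries. The ratio of its counts, mTORi to WT, with library sizes scaled by TMM, was 0.0400 (exact 95% interval 0.00475 to 0.150) and the fitted log2 change -4.49 (SE 0.84, edgeR adjusted p = 0.00152), or -3.86 without mTORi replicate 2, the library at 0.

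miR-99b-5p (chr17:17830194-17830215, + strand, in an intron of Spaca6) belongs to a family known to repress Mtor itself. It had 70 and 86 counts in WT and 12, 4 and 10 in mTORi, or 10900 and 10280 CPM against 2864, 1098 and 3288 CPM. The fall was 4.38-fold (log2 -2.13, SE 0.60, edgeR adjusted p = 0.0254). This call was lost in every fit without 1 of the 5 libraries (log2 -2.24 to -1.68, adjusted p = 0.0642 to 0.130) and with the GC trend removed (log2 -1.36, adjusted p = 0.171).

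The other tested miRNAs within Spaca6, let-7e-5p in an intron and miR-125a-5p overlapping an exon, were not called. Both were also below WT in every mTORi library, as were 24.5% of all tested miRNAs. let-7e-5p, of the let-7 family that promotes differentiation, had 32 and 38 counts in WT and 9, 4 and 6 in mTORi (log2 -1.44, SE 0.51, edgeR adjusted p = 0.0810). miR-125a-5p, a relative of lin-4, had 94 and 124 counts in WT and 20, 24 and 26 in mTORi (log2 -1.16, SE 0.43, adjusted p = 0.0894). Both were called by DESeq2 (adjusted p = 0.0398 and 0.0336), with a minimum count of 20 and with the replicate number as a block (0.0251 and 0.0296). let-7e-5p was also called with the GC trend removed (0.0419) and miR-125a-5p in the fit of the 5 libraries (0.00155). The grouping by host gene was made after values were seen.

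miR-466f-3p, of the large miRNA cluster in an intron of the trophoblast gene Sfmbt2, had 15 and 21 counts in WT and 2, 2 and 1 in mTORi (log2 -2.36, SE 0.61, edgeR adjusted p = 0.0173). Names of this cluster are near copies of each other, so its count is uncertain, and the call was lost with no filter on low counts (adjusted p = 0.124) and in every fit without 1 of the 5 libraries (0.0578 to 0.0972). The other tested names of the cluster were not called, miR-669c-5p at -0.85 (SE 0.41) and miR-466d-3p at -0.06 (SE 0.46). The cluster as a whole held 2.19% and 2.91% of counts in WT and 1.44%, 1.85% and 1.26% in mTORi.

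**Figure D3:**
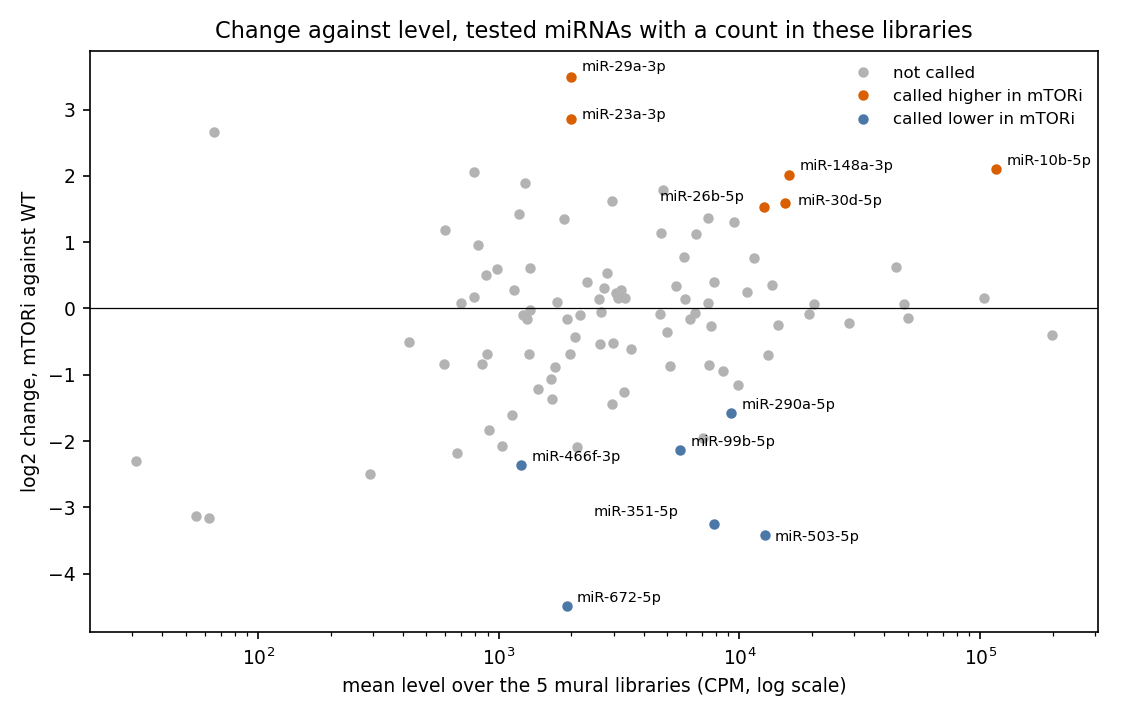
Log2 change between mTORi and WT mural fragments against the mean level over the 5 libraries (CPM, log scale), 1 point for each tested miRNA with a count in them. The 6 miRNAs called higher and the 6 called lower are named; miR-10b-5p lies at 116400 CPM, and the points under 100 CPM rest on 1 or 2 counts.

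The miR-290/miR-295 cluster on chromosome 7 is the most abundant source of miRNAs in mouse pluripotent cells. It took 51.0% and 50.2% of counts in the WT libraries and 42.5%, 40.2% and 40.8% in the mTORi libraries, with no overlap. Of its 13 tested names, 1 was called, a share near the 11.8% of all tested miRNAs. This was miR-290a-5p (chr7:3218626-3218708, + strand), with 110 and 114 counts in WT and 19, 26 and 11 in mTORi, or 17140 and 13630 CPM against 4535, 7137 and 3617 CPM. It fell 3.0-fold (log2 -1.58, SE 0.43, edgeR adjusted p = 0.0194), and the call was lost without mTORi replicate 1 (adjusted p = 0.111), mTORi replicate 3 (0.146) or WT replicate 1 (0.141).

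The lower share of the cluster lay in its 5p arms. These took 30.0% and 28.5% of counts in WT and 21.4%, 19.0% and 19.5% in mTORi, while the 3p arms took 21.0% and 21.7% in WT and 21.1%, 21.2% and 21.3% in mTORi. All 7 tested 5p names had a negative log2 change (1 called, median -0.71), and 4 of the 6 tested 3p names had a positive one (0 called, median 0.11), beside -0.06 over all tested miRNAs. With the GC trend removed, the signs of some 3p names turned: miR-294-3p was at -0.08, miR-295-3p at -0.17 and miR-293-3p at 0.03. miR-290a-5p stayed called there (log2 -1.61, edgeR adjusted p = 0.0184). The 5p share of the counts of both arms, chosen after the values were seen, was 58.9% and 56.8% in WT. It was 50.4%, 47.2% and 47.9% in mTORi libraries. The share was also lower in polar mTORi (49.7%, 47% and 40.9%) than in polar WT libraries (58.7% and 56.1%). In mural diapaused libraries it was 49.2% to 54.4%, so a lower 5p share was not particular to mural mTORi.

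miR-292a-5p, the most abundant miRNA of these libraries, was at 232800 ± 790 CPM (SD, n = 2) in WT and 177100 ± 19100 CPM (n = 3) in mTORi, with no overlap. Its log2 change was -0.39 (SE 0.19, edgeR adjusted p = 0.175), not called here and called with RLE factors (-0.50, adjusted p = 0.0427), a minimum count of 20 and in both fits of mural libraries alone. The 3p arm of its hairpin, miR-292a-3p, was at 47070 ± 4160 CPM (SD, n = 2) and 49200 ± 7240 CPM (n = 3). Within the miR-292a hairpin the 5p arm held 82.4% and 84.0% in WT and 80.5%, 77.7% and 76.5% in mTORi, and within the miR-295 hairpin 34.5% and 26.3% against 12.9%, 14.3% and 10.3%. In these 2 of the 7 hairpins of the cluster every mTORi library was under both WT libraries, and the others overlapped. Over 39 hairpins with at least 20 counts, 3 were under WT (the third was miR-503), 3 above, 31 overlapped and 2 had no count in a library.

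The 3p names with the seed AAGUGCU, which promote the cell cycle of embryonic stem cells, had log2 changes of 0.16 to 0.36, and none was called. miR-294-3p, the most abundant of them, was at 96730 ± 9670 CPM (SD, n = 2) in WT and 108300 ± 4140 CPM (n = 3) in mTORi (log2 0.16, 95% interval -0.19 to 0.51). miR-295-3p had a log2 change of 0.36 (SE 0.35) and miR-291a-3p of 0.17 (SE 0.52).

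**Figure D4:**
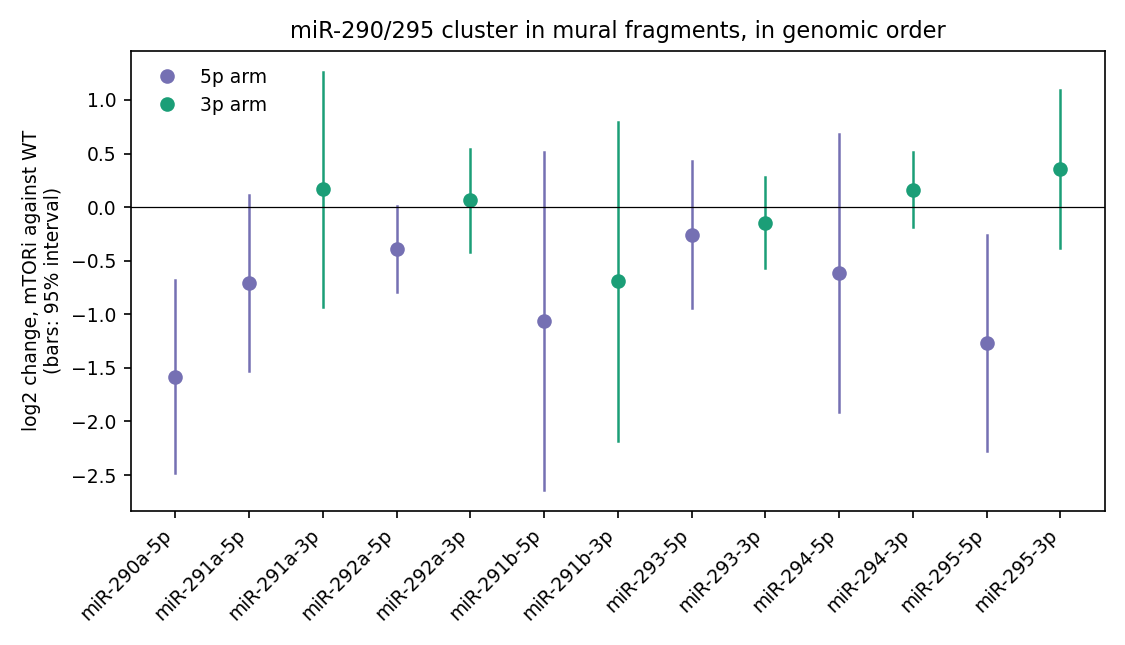
Log2 change between mTORi and WT mural fragments for the 13 tested names of the miR-290/miR-295 cluster in the order of their hairpins, with 95% intervals of the edgeR fit, 5p arms in purple and 3p arms in green. All 7 5p arms lie below 0 and 4 of the 6 3p arms above it, and miR-290a-5p is the one called.

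Summed by seed, 79 families or single names were tested and 11 (13.9%) were called, 6 higher (7.59%) and 5 lower (6.33%). The seed CCCUGAG, which joins miR-351-5p and miR-125a-5p from different chromosomes, fell 3.92-fold (log2 -1.97, SE 0.31, edgeR adjusted p = 0.000491), the smallest p of the sums. The seed CAGUGCA of the miR-148/miR-152 family rose (log2 1.51, SE 0.25, adjusted p = 0.000491) although miR-148b-3p lay lower in every mTORi library. The seed ACCCUGU of miR-10a-5p and miR-10b-5p rose (2.05, SE 0.38), and ACCCGUA, carried mainly by miR-99b-5p, fell (-1.84, SE 0.47).

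The seed AGCAGCG, held by miR-503-5p alone, was at -3.45 (SE 0.76). The seed AGCAGCA, shared by miR-322-5p with miR-15a-5p, miR-15b-5p and miR-195a-5p, was at -0.01 (SE 0.43). Names without a count in the 5 libraries add nothing to the sums, among them miR-16-5p, miR-125b-5p, let-7a-5p and let-7c-5p. The sum of CUCAAAC, the seed of miR-290a-5p and miR-292a-5p, was at -0.48 (SE 0.20, edgeR adjusted p = 0.134), and AAGUGCU at 0.14 (SE 0.19).

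Other families had no called member, beside 11.8% of all tested miRNAs. In the let-7 family, which accumulates with differentiation, 0 of 5 were called: let-7d-5p had 7 counts in WT and 20 in mTORi (log2 1.89, SE 0.70, edgeR adjusted p = 0.0894; called in the fit of the 8 mural libraries, 0.0201), against the opposite sign of let-7e-5p, and the seed sum was at 0.33 (SE 0.40). In the miR-200 family of the epithelial state, 0 of 5 were called. miR-200c-3p was at 33830 ± 4370 CPM (SD, n = 2) in WT and 52070 ± 3930 CPM (n = 3) in mTORi (log2 0.62, SE 0.24, adjusted p = 0.0913), and the other 4 members lay between -0.08 and 0.50. It was called in the fits of the 5 libraries (0.58, adjusted p = 0.00179) and of the 8 mural libraries (0.76, 0.000198). Among the relatives of miR-17 and miR-92a, which favour proliferation, 0 of 6 were called. miR-93-5p (-1.37, SE 0.51) and miR-25-3p (1.43, SE 0.54), neighbours in 1 transcript, had opposite signs with the same adjusted p = 0.0894. In the X-linked cluster of miR-743 and miR-880, 0 of 7 were called, and in the pair miR-182 and miR-183 0 of 2, with miR-183-5p at -0.95 (SE 0.45). miR-101a-3p was at 1.36 (SE 0.47, adjusted p = 0.0810) and miR-101b-3p at -0.27 (SE 0.35). The edgeR fits of the 5 libraries (adjusted p = 0.0141) and of the 8 mural libraries (0.00673) called miR-101a-3p. The fit of the 5 libraries also called miR-183-5p (0.0287), and a minimum count of 20 called miR-93-5p (0.0398).

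Some uncalled differences rest on WT replicate 2. miR-5126 had 3 and 207 counts in WT and 4, 23 and 8 in mTORi, and its log2 change of -1.95 (SE 0.90, edgeR adjusted p = 0.175) became 2.69 (SE 1.05) without WT replicate 2 and 1.17 with the GC trend removed. It was called without WT replicate 1 (-2.89, adjusted p = 0.0089), with no filter (-2.16, 0.00372) and in the fit of the 5 libraries (-2.05, 1.26e-05). Picked for this pattern once the counts were known, miR-2137 had 3 and 61 counts in WT and 4, 3 and 3 in mTORi (log2 -2.08, SE 0.98, adjusted p = 0.175).

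Base composition moved with the direction of change. The mature sequences of the called rises had a median GC content of 40.9% (5 of 6 with a sequence) and those of the called falls 56.5% (5 of 6), beside 45.5% over all tested miRNAs with a sequence. Over these 89 miRNAs, which share libraries, Spearman's rho between GC content and log2 change was -0.38 and Pearson's r -0.35, given as a description. With a linear GC trend removed within each library, an alternative chosen after seeing the data, 11 miRNAs were called, 10 of them among the 12.

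The mTORi effect in mural fragments was then set against that in polar fragments, through the difference of both effects. edgeR called 0 of 102 (0%) miRNAs for this difference, with 14 at an unadjusted p under 0.05. The smallest p was that of miR-351-5p, with a mural log2 change of -3.26 (SE 0.55) and a polar one of 0.35 (SE 0.66), a difference of -3.60 (SE 0.86, edgeR adjusted p = 0.0651). It was called with DESeq2 (-3.58, adjusted p = 0.000313), limma voom (-4.42, 0.0266), RLE factors (-3.69, 0.0441), a minimum count of 20 (-3.87, 0.0199) and no filter (-3.56, 0.00845), and not otherwise. Next came miR-148b-3p (difference -2.788, SE 0.80, edgeR adjusted p = 0.1365), miR-200b-3p (-1.61, SE 0.52, 0.2133) and miR-451a (4.245, SE 1.44, 0.2258). miR-148b-3p was at -0.89 in mural and 1.90 in polar fragments. miR-200b-3p was called with a minimum count of 20 (0.0199) and miR-451a with no filter (0.0103). miR-451a was at 1038 and 23270 CPM in the polar WT libraries. Polar mTORi replicate 3 stood apart from its group, its chi-square divided by the degrees of freedom being 21.67 and 16.91 against the others. It held miR-203-3p at 266500 CPM against 4650 and 14800, and miR-205-5p at 55570 CPM against 3219 and 2115. Stratified epithelial markers reached 25.8% of counts in polar mTORi, beside 0.459% and 0.526% in polar WT. This library enters every polar mTORi effect and the spread used in all tests, and no fit left it out alone.

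miR-503-5p was at -3.41 (SE 0.75) in mural and -0.14 (SE 0.93) in polar fragments (difference -3.27, SE 1.22, edgeR adjusted p = 0.270). In polar WT libraries both miRNAs were already low, at most at 2883 CPM. Polar counts of miR-351-5p were 0 and 14 in WT and 6, 7 and 5 in mTORi. Those of miR-503-5p were 2 and 14 in WT and 14, 0 and 2 in mTORi. Polar libraries held 1744 to 4940 counts in WT and 2184 to 3501 in mTORi. Changes on so few counts do not show a lack of effect in polar fragments. Mural and polar log2 changes of miR-10b-5p were 2.11 (SE 0.40) and 3.02 (SE 0.44). For miR-148a-3p they were 2.02 (SE 0.28) and 1.18 (SE 0.27). For miR-29a-3p they were 3.49 (SE 1.01) and 4.26 (SE 1.15), and for miR-672-5p -4.49 (SE 0.84) and -3.35 (SE 0.64). The edgeR adjusted p of these differences was 0.322 to 0.895.

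The mTOR-inhibited pause was last compared with natural diapause in mural fragments. miR-351-5p was the only miRNA called of 102 (0.980%), lower in mTORi at 1782 ± 474 CPM (SD, n = 3) than in diapaused libraries at 11650 ± 966 CPM (n = 3). The log2 difference was -2.71 (SE 0.51, edgeR adjusted p = 0.00613), 26 miRNAs had an unadjusted p under 0.05, and edgeR called 0 without mTORi replicate 2 or replicate 3, with 18 and 10 at an unadjusted p under 0.05. DESeq2 called 5, limma voom 6 and the edgeR fit of the 8 mural libraries 16 (11 higher, 5 lower), with miR-351-5p among them each time. The 16 also held miR-10b-5p, miR-148a-3p, miR-26b-5p, miR-290a-5p and miR-503-5p of the 12 called against WT. miR-503-5p was at 2565 ± 972 CPM (SD, n = 3) in mTORi and 11140 ± 3880 CPM (n = 3) in diapaused libraries (log2 -2.09, SE 0.70, adjusted p = 0.0687). Within libraries, miR-351-5p made up 25.7% to 34.1% of its sum with miR-322-5p in diapaused mural fragments, between the WT and the mTORi shares. This share too was chosen after the values were seen.

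miR-10b-5p was at 167900 ± 12300 CPM (SD, n = 3) in mTORi and 83680 ± 13100 CPM (n = 3) in diapaused libraries, with no overlap (log2 1.01, SE 0.33, edgeR adjusted p = 0.0687). It was called here with DESeq2 (1.17, adjusted p = 0.00908), limma voom and RLE factors. The log2 differences between the pauses were -0.13 (SE 0.29) for miR-30d-5p, 0.31 (SE 0.22) for miR-148a-3p and -0.02 (SE 0.60) for miR-23a-3p, none of them called, although miR-148a-3p was called in the fit of the 8 mural libraries (0.64, adjusted p = 0.0326). Both comparisons with WT use the same 2 mural WT libraries. Against them, miR-148a-3p changed by 2.02 (SE 0.28) in mTORi and 1.71 (SE 0.27) in diapause, miR-30d-5p by 1.59 (SE 0.35) and 1.73 (SE 0.35), and miR-23a-3p by 2.85 (SE 0.85) and 2.87 (SE 0.82). miR-290a-5p was at -1.58 (SE 0.43) and -0.30 (SE 0.41), with a difference between the pauses of -1.29 (SE 0.39, edgeR adjusted p = 0.0687). Also among the 5 smallest p between the pauses were miR-320-3p (log2 1.62, SE 0.43), miR-5126 (3.70, SE 1.05) and miR-292a-5p (-0.60, SE 0.17). Each had an edgeR adjusted p of 0.0687, and each was called in some alternatives. miR-320-3p was called with DESeq2 (1.76, adjusted p = 0.00737), limma voom (1.57, 0.0292) and the 8 mural libraries (1.95, 0.00201), among others.

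**Figure D5:**
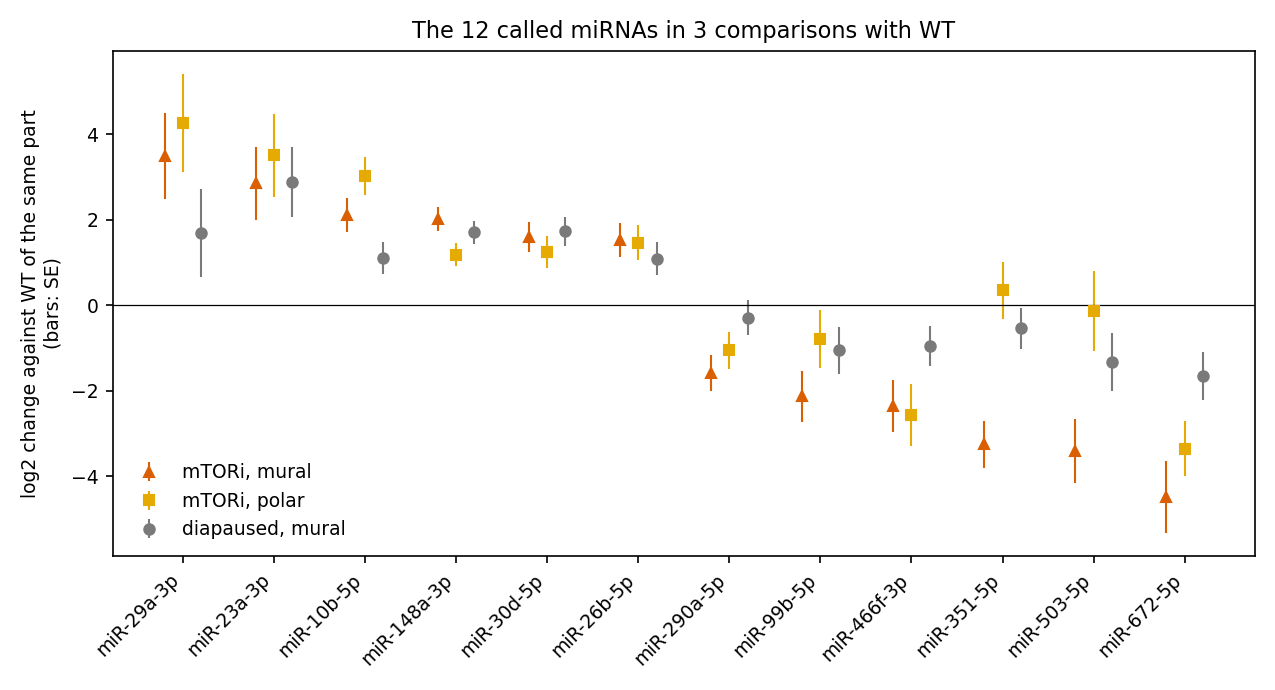
Log2 change against WT of the same fragment for the 12 miRNAs called in mural mTORi libraries (triangles), beside polar mTORi (squares) and mural diapaused libraries (circles), with bars of 1 SE. miR-351-5p and miR-503-5p are at 0.35 and -0.14 in polar mTORi, on 0 to 14 counts in each polar WT or mTORi library. The mural comparisons share their 2 WT libraries.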

How the data were processed

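Small RNA was sequenced after ligation of adapters with unique molecular identifiers and 12 to 20 PCR cycles, in reads of 75 nt, per the labels' protocols. The authors deposited whole-number counts per mature miRNA name, not normalized, 1 file for each library. The submitters' processing notes name genome build GRCm38; the sources used here do not give the aligner, counter, miRNA annotation or any collapse of identifiers, so intervals and floors cover counting error only. No batch is labelled.

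Counts were fitted in R 4.3.3 with edgeR 4.0.16: filterByExpr (minimum count 10, minimum total 15), TMM factors, 1 mean for each of the 6 groups over all 16 libraries (10 residual degrees of freedom, common dispersion 0.1417), two-sided quasi-likelihood tests and Benjamini-Hochberg adjustment over all tested names, called under 0.05. The same fit gave the difference of effects between fragments and mTORi against diapause, and was repeated on counts summed over bases 2 to 8. Shares are given as descriptions and were not tested. A group with no count is given an upper limit of 3 counts. The code was tested on simulated counts.

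Alternatives used DESeq2 1.42.0, limma 3.58.1 (voom), other scalings, filters and sets of libraries, the replicate number as a block, each library left out, and removal of a GC trend. Members and lists were chosen with earlier results of these data known. The naming rule held those called, the 10 most abundant, the tested members of the lists and the 5 with the smallest p in the other tests. Not every miRNA under the rule is described. Other names are said to be chosen after their values were seen. Sequences and positions come from RefSeq (GRCm38.p6), which held 1679 of 1978 names. Of the 53 names with 2 or more hairpins in that table, only let-7f-5p (11 counts) and miR-92a-3p (131) had counts in these libraries.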

Additional observations from a re-analysis of the deposited data

How the results depend on the processing

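The 12 calls became 22 with only the 5 libraries compared and 19 with the 8 mural libraries, and 6 to 8 when a library was left out. The other settings gave 11 to 15, with 11 for RLE factors, limma voom and the GC trend removed, 12 for library size alone, 13 for no filter, 14 for DESeq2 and 15 for a minimum count of 20. miR-148a-3p, miR-351-5p, miR-672-5p and miR-10b-5p were called in all 15 alternatives, and no called miRNA changed sign in any of them, while 27 of the 57 named miRNAs that were not called did, miR-322-5p and miR-5126 among them. Seed sums gave 17 calls with only the 5 libraries, 20 with the 8 mural libraries and 6 to 12 without a library, in place of 11. The difference between mural and polar effects, with 0 calls, gave 1 with RLE factors, DESeq2 and limma voom, 2 with a minimum count of 20, 6 with no filter and 0 without any single mural library. mTORi against diapause, with 1 call, gave 5 with RLE factors, a minimum count of 20 and DESeq2, 4 with library size alone, 6 with no filter and limma voom, 16 with the 8 mural libraries and 0 to 3 without a library, 0 without mTORi replicate 2 or 3. The cause of these differences was not tested. The fits that leave a library out also hold fewer libraries.

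With the replicate number as a block 14 miRNAs were called (6 higher, 8 lower), the 12 with let-7e-5p and miR-125a-5p, the seed sums gave 11, the difference between fragments 0 and mTORi against diapause 1. The labels do not say that a number marks a shared pool, and deviations from the group means of libraries with the same number correlated at 0.231 (number 1) and 0.175 (number 2) over tested miRNAs. With 2 pairs, and with deviations of the 2 WT libraries that mirror each other, these values do not settle whether the numbers pair the libraries. Depth limits what can be detected: 3 counts over a group equal 203 CPM in WT and 275.9 CPM in mTORi, and 161 names had only 1 to 9 counts in the 5 libraries.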
